A study of Saccharomyces cerevisiae with 6 samples.

Results

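The genes described here encode the steps of yeast glycolysis from glucose 6-phosphate to the triose phosphates, together with the enzymes that make and break down fructose 2,6-bisphosphate. They were picked by name, as the rows of the deposited table called *PGI1*, *PFK1*, *PFK2*, *FBA1*, *PFK26*, *PFK27* and *FBP26*, which makes 7 of the 6687 features measured. The study compared mRNA levels by mRNA-Seq in *Saccharomyces cerevisiae* BY4741, an auxotrophic laboratory strain, carrying either the empty pCM190 plasmid (control cells) or pCM190 with the *PPZ1* open reading frame, which encodes a Ser/Thr protein phosphatase. Both strains thus shared the host genotype, the plasmid backbone and a medium without uracil, which keeps the plasmid, and *PPZ1* was driven on this multicopy plasmid by the tetO7 promoter, which doxycycline shuts off. Cultures were kept in doxycycline (100 µg/ml) overnight, freed of it, grown for 3.5 h from an OD600 of 0.2 to 0.55, and transferred for 1 h to new medium whose sugar was glucose at 2% or at 0.25%, or galactose at 2%. Each of the 6 combinations was represented by 1 library, so a comparison of 2 libraries has no replicate error and was not tested. A difference shared by the 3 media, or by both strains, was tested in an additive fit over all 6 libraries. Outside that fit, the error after each log2 change is the standard error from read counting, and ranges in parentheses are 95% counting intervals. Neither of these covers variation between cultures or libraries. Whether an mRNA fell in each cell or in some of the cells cannot be told apart in such bulk samples.

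Phosphoglucose isomerase (Pgi1) converts glucose 6-phosphate into fructose 6-phosphate, and phosphofructokinase, built from the alpha subunit Pfk1 and the beta subunit Pfk2, commits the sugar to glycolysis by adding a second phosphate. Aldolase (Fba1) then splits the product into triose phosphates. Pgi1 and Fba1 also work in the opposite direction when cells make sugar, whereas phosphofructokinase is bypassed then by the fructose-1,6-bisphosphatase Fbp1. Fructose 2,6-bisphosphate is a signal and not an intermediate: it activates phosphofructokinase and inhibits Fbp1. Pfk26 and Pfk27 synthesize it, and Fbp26 degrades it. All values below are mRNA levels and say nothing of enzyme activity or of the amount of the metabolite.

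Reads in features numbered from 1845237 in cells overexpressing *PPZ1* in 0.25% glucose to 6784469 in control cells in 0.25% glucose. *PPZ1* itself stood at 75.0 to 94.3 CPM in the control libraries (CPM being the deposited value per 1000000 reads of the largest library) and at 12538, 17798 and 2705 CPM in cells overexpressing it in 2% glucose, 0.25% glucose and galactose, as the labels state. The library of overexpressing cells in 0.25% glucose was the smallest, and it stood apart by coding length: across 5243 genes the difference from control cells in 0.25% glucose had a Spearman correlation of -0.69 with feature length, against -0.12 in both other media. Log2 changes of the 7 genes that rest on this library are therefore also given with the running median over genes of similar length subtracted.

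*PGI1* (YBR196C) lies on chromosome II from 612236 to 613900 and *PFK1* (YGR240C) on chromosome VII from 970771 to 973734. *PFK2* (YMR205C) lies on chromosome XIII from 671887 to 674766 and *FBA1* (YKL060C) on chromosome XI from 326408 to 327487. *PFK26* (YIL107C) lies on chromosome IX from 163278 to 165761, *PFK27* (YOL136C) on chromosome XV from 67561 to 68754, and *FBP26* (YJL155C) on chromosome X from 129285 to 130643. These are coding sequences on the minus strand in build R64, and for all 7 the deposited features start and end exactly 50 bp outside them. The subunit genes *PFK1* and *PFK2* share the longest run of identical bases among the 21 pairs, 25 bases, and reads confined to it could not be assigned to either gene. In the other pairs the longest shared run was 10 to 12 bases.

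The 3 genes of fructose 2,6-bisphosphate metabolism had the most variable mRNAs of the 7 over the 6 libraries, *PFK27* only through its level in the smallest library. The 300 bases before their start codons are shown, from the RefSeq R64 genome and on the strand of the gene: chrX:130644-130943 for *FBP26*, chrIX:165762-166061 for *PFK26* and chrXV:68755-69054 for *PFK27*. Capitals mark matches, on either strand, to 5 motifs searched by their letters. These were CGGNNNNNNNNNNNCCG for the galactose activator Gal4, CTTCC for the glycolytic activator Gcr1, the letters CACCCA for Rap1, and AGGGG for the stress element. The glucose repressor Mig1 was searched as CCGGGG, as the variant CTGGGG, as the variant GCGGGG and as the variant GTGGGG. None of these contains AGGGG, although words on opposite strands can share bases. *FBP26* held 1 match, to AGGGG, 37 to 33 bases before the start codon, a motif found in 22.2% of the same windows of 6001 genes. *PFK27* held 3 matches to CTTCC, all on the other strand and printed as GGAAG, the nearest 12 to 8 bases before the start codon, and *PFK26* held none to any of the 5. CTTCC occurred in 45.5% of all windows, CACCCA in 7.07%, the Mig1 letters in 12.0% and the Gal4 letters in 1.45%. Of the other genes, *PFK1*, *PFK2* and *FBA1* held 1 match to CTTCC each and *PGI1* held none to the 5 motifs. A match describes letters only, and its absence says nothing outside these windows.
FBP26: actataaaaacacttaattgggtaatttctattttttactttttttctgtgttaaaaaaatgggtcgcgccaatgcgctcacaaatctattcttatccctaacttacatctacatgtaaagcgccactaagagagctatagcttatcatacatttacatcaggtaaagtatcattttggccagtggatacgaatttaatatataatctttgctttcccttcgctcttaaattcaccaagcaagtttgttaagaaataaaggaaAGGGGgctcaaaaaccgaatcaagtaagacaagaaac
PFK26: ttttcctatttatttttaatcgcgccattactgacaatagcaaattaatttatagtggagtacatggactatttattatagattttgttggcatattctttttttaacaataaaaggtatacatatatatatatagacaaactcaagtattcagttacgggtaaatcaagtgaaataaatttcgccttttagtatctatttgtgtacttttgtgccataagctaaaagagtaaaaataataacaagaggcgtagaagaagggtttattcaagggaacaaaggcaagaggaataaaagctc
PFK27: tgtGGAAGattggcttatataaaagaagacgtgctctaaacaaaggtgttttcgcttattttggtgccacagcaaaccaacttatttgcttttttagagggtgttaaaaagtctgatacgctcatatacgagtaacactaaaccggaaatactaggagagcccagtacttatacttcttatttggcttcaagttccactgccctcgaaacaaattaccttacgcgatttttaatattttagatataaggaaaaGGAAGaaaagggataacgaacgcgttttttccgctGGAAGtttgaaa

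The 4 enzymes of the main pathway were far more abundant as mRNA than the 3 regulatory enzymes. Per kb of feature, the mean level over the 6 libraries was 8001 CPM for *FBA1*, which ranked 7th among the 5382 genes above a mean level of 10 CPM, 921 CPM for *PGI1*, 283 CPM for *PFK1* and 206 CPM for *PFK2*. It was 73.2 CPM for *FBP26*, 44.5 CPM for *PFK27* and 37.4 CPM for *PFK26*. The most abundant mRNA was also the steadiest: *FBA1* differed 1.47-fold between its highest and lowest library, *PFK1* 1.76-fold, *PFK2* 1.94-fold, *PGI1* 2.04-fold, *PFK27* 2.48-fold, *PFK26* 5.14-fold and *FBP26* 9.72-fold. The 7 genes together took 1.05% to 1.46% of the reads, most of them *FBA1* reads. The lowest counts behind any value were 64 reads for *PFK27*, 71 for *PFK26* and 76 for *FBP26*, all in overexpressing cells in 0.25% glucose. *PFK27* stood at 33.7 CPM in that library and between 50.8 and 83.6 CPM in the others. The latter is a narrower fold range than that of *PGI1* (1007 to 2054 CPM).

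**Figure D1:**
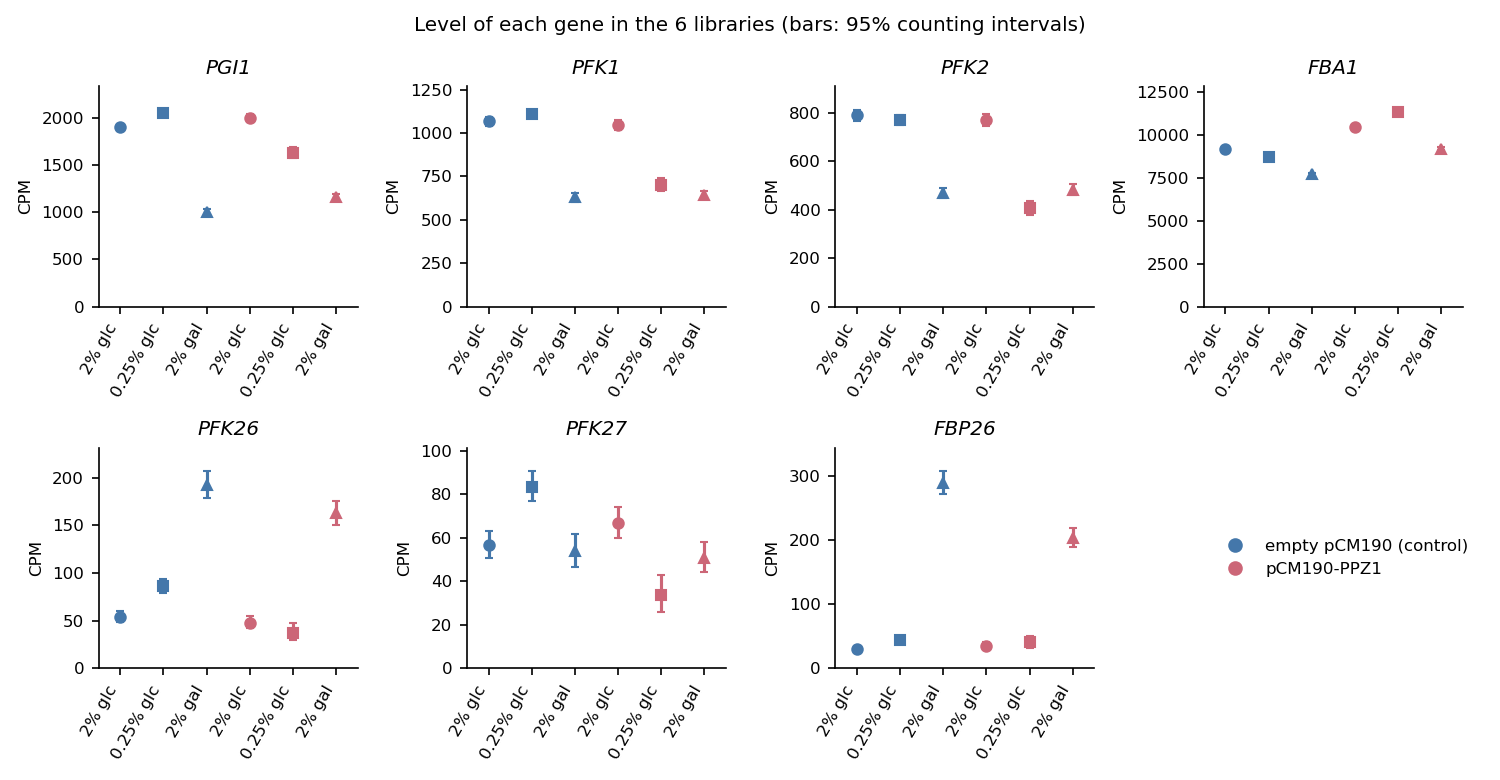
Level of each gene in CPM (vertical axis, from 0, a different scale in each panel) in the 6 libraries (horizontal axis), control cells in blue and cells with pCM190-PPZ1 in red; points are single libraries and bars are 95% counting intervals. *FBP26* and *PFK26* are highest in both galactose libraries, at 289 and 203 CPM and at 192 and 162 CPM.

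Galactose gave the largest differences. *FBP26* encodes the enzyme that degrades fructose 2,6-bisphosphate. In control cells its mRNA level on glucose was 29.8 CPM (25.5 to 34.6) at the 2% concentration and 43.6 CPM (38.8 to 48.9) at the 0.25% concentration, whereas galactose gave 289 CPM (272 to 307). In cells overexpressing *PPZ1* the corresponding levels were 34.9 CPM (29.9 to 40.5), 40.0 CPM (31.5 to 50.1) and 203 CPM (190 to 218). Both galactose libraries were thus far above all 4 glucose libraries, whose levels lay between 29.8 and 43.6 CPM. Against 2% glucose the difference was 9.72-fold (8.26 to 11.5) in control cells, a log2 change of 3.24 ± 0.12, and 5.83-fold (4.94 to 6.90) in overexpressing cells, 2.51 ± 0.12. *FBP26* ranked 221st from the top of 5403 genes in control cells and 315th of 5382 in overexpressing cells.

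*PFK26*, for the 6-phosphofructo-2-kinase that makes the same metabolite, was also higher in galactose, by a smaller factor. Its mRNA stood at 54.1 CPM (48.2 to 60.5), 86.1 CPM (79.2 to 93.4) and 192 CPM (178 to 207) in 2% glucose, 0.25% glucose and galactose in control cells, and at 47.8 CPM (41.9 to 54.3), 37.4 CPM (29.2 to 47.2) and 162 CPM (150.2 to 175) in overexpressing cells. The galactose libraries were the highest in both strains. The log2 change against 2% glucose was 1.81 ± 0.10 in control cells (3.55-fold) and 1.74 ± 0.11 in overexpressing cells (3.40-fold). *PFK27*, for the other 6-phosphofructo-2-kinase, did not follow it. In galactose it stood at 54.0 CPM (46.8 to 62.0) in control cells and 50.8 CPM (44.1 to 58.3) in overexpressing cells, against 56.5 CPM (50.5 to 63.1) and 66.8 CPM (59.8 to 74.4) in 2% glucose, log2 changes of -0.07 ± 0.13 and -0.39 ± 0.13.

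The genes of the main pathway were lower in galactose, short of 2-fold. *PGI1* went from 1899 CPM in 2% glucose to 1007 CPM in control cells and from 1998 to 1163 CPM in overexpressing cells, log2 changes of -0.91 ± 0.03 and -0.78 ± 0.03. *PFK1* stood at 1067 and 630 CPM in control cells and at 1047 and 642 CPM in overexpressing cells, and *PFK2* at 789 and 469 CPM and at 771 and 483 CPM. The log2 changes of these subunit genes were nearly equal, -0.76 ± 0.04 and -0.75 ± 0.04 in control cells and -0.70 ± 0.03 and -0.68 ± 0.04 with *PPZ1*. *FBA1* was least affected, with 9194 and 7722 CPM in control cells (-0.25 ± 0.01) and 10478 and 9206 CPM in overexpressing cells (-0.19 ± 0.01). In each strain *FBP26* and *PFK26*, 2 of the 7 genes, passed 2-fold upward and none passed it downward. Among all 5403 genes of control cells 23% passed upward and 19.7% downward, and among all 5382 genes of overexpressing cells 19.8% and 21.1%, so that 2 of 7 is close to the share of all genes. The median of the 7 was -0.25 in control cells and -0.39 in overexpressing cells, against 0.06 and -0.08 for all genes. With the length trend subtracted *PGI1* also passed 2-fold in control cells (-1.07), where 21.1% of all genes passed downward. With upper-quartile scaling, which lowers the median of all genes to -0.20 in control cells, *PGI1* (-1.17), *PFK1* (-1.02) and *PFK2* (-1.01) also passed 2-fold there, at a setting where 26.2% of all genes passed downward and 18.3% upward. Taking 0.25% glucose as the reference, chosen after the values were seen, *FBP26* and *PFK26* still differed by more than 2-fold in both strains, by 2.70 and 1.15 in control cells and by 2.32 and 2.09 in overexpressing cells, or 1.98 and 1.77 there with the length trend subtracted. *PGI1* then passed 2-fold downward in control cells (-1.03, and -0.99 with the trend subtracted). Against this reference 19.2% of all genes passed upward and 21.0% downward in control cells, and 23.6% and 19.8% in overexpressing cells. In overexpressing cells *PFK27* was higher in galactose than in 0.25% glucose (0.58, and 0.50 with the trend subtracted), whereas *PFK2* went from 0.25 to -0.06.

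The additive fit, which sets strain and medium side by side and leaves 2 residual degrees of freedom, called 5 of the 7 genes in galactose against 2% glucose over both strains (edgeR's quasi-likelihood test, Benjamini-Hochberg adjusted p under 0.05 over 5382 genes). *FBP26* rose by 2.94 ± 0.22 (adjusted p = 6.63e-06) and *PFK26* by 1.82 ± 0.24 (adjusted p = 0.000153), each higher in galactose in 2 of 2 strains. *PGI1* (-0.82 ± 0.21, adjusted p = 0.0066), *PFK1* (-0.71 ± 0.21, adjusted p = 0.0149) and *PFK2* (-0.69 ± 0.23, adjusted p = 0.028) fell, each lower in 2 of 2 strains. *FBA1* (-0.20 ± 0.23) and *PFK27* (-0.22 ± 0.29) did not pass. Of all genes 32.9% were called higher and 32.9% lower, so that 5 of 7 is again close to the share of all genes. The errors here follow the spread of the 6 libraries around an additive pattern, which edgeR estimates for each gene by borrowing from all genes. The p-values thus do not rest on the 2 residual degrees of freedom of each gene alone. A response that differs between the strains counts as error, and p-values measure only that pooled spread.

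**Figure D2:**
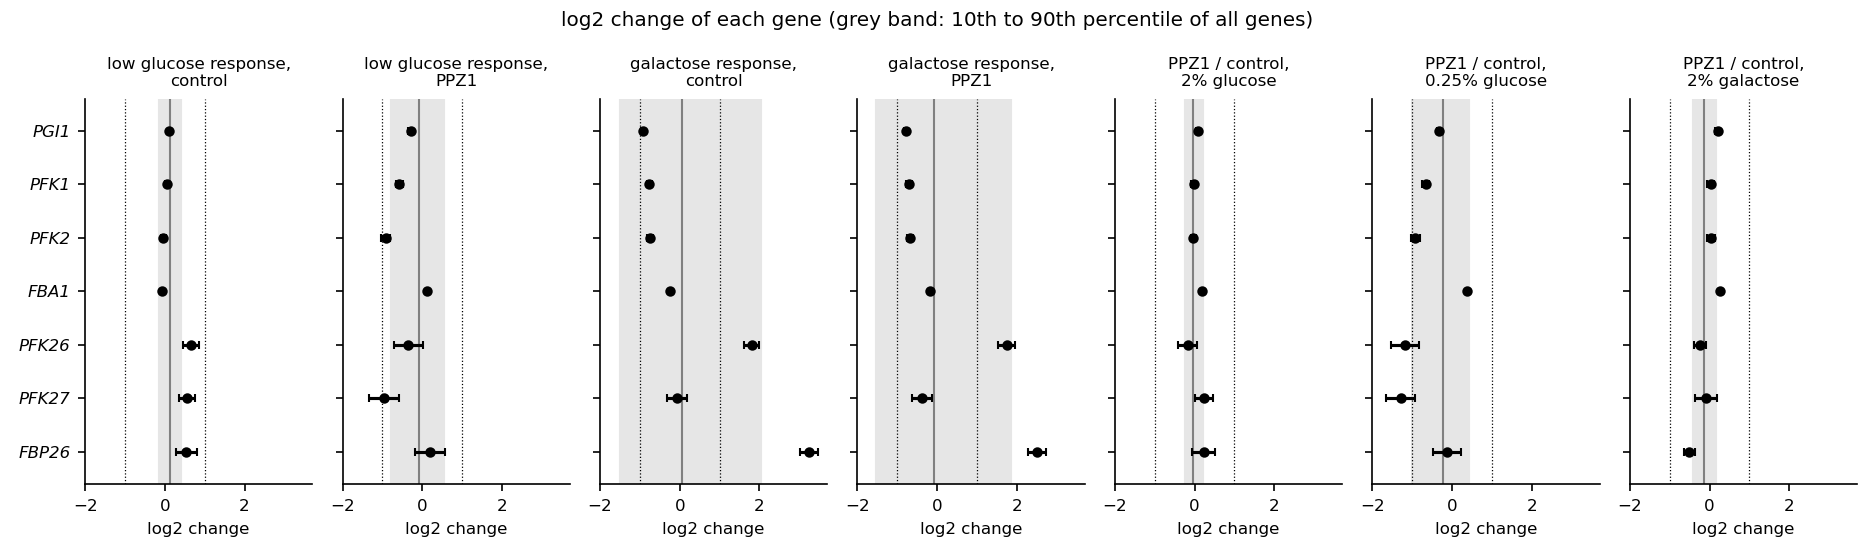
log2 change of each gene (horizontal axis, log2 of CPM plus 1) in the 7 comparisons, 1 panel each; points are single comparisons of 2 libraries, bars are 95% counting intervals, grey bands run from the 10th to the 90th percentile of all genes with their median as a line, and dotted lines mark 2-fold. Only *FBP26* and *PFK26* pass 2-fold upward, in galactose, and only *PFK27* and *PFK26* downward, in the comparison of strains in 0.25% glucose.

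The response to galactose was of similar size in both strains for 5 of the 7 genes, whose log2 changes differed between the strains by -0.07 to 0.13. With the trend with feature length subtracted in both strains these differences were 0.09 to 0.33, the largest for *PGI1*. *PFK27* differed by -0.32 ± 0.18, and by -0.25 with the trend subtracted. *FBP26* was the exception, with a change lower by 0.73 on the log2 scale in overexpressing cells (difference -0.73 ± 0.17), where the median difference over 5360 genes was -0.11. Its difference ranked 94th from the lowest and was -0.57 with the trend with feature length subtracted in both strains. In galactose itself *FBP26* was lower with *PPZ1* than in control cells by a log2 difference of -0.51 ± 0.07, and in 2% glucose higher by 0.22 ± 0.15.

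**Figure D3:**
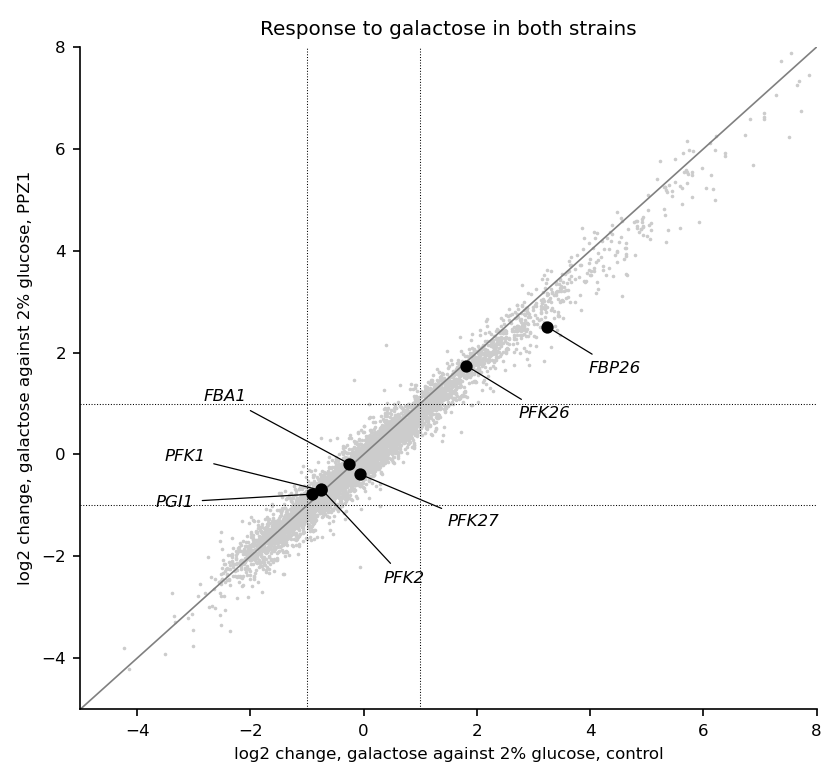
log2 change from 2% glucose to galactose in control cells (horizontal axis) and in cells overexpressing *PPZ1* (vertical axis) for all genes compared in both (grey; 6 lie beyond the axes), with the 7 genes in black; the line marks equal changes and dotted lines mark 2-fold. *FBP26* lies at 3.24 and 2.51, below the line, and *PFK26* at 1.81 and 1.74, close to it.

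Other genes of sugar breakdown, of its reverse step and of its control were divided in galactose. They came from a list drawn up by function with earlier results of these data known. Of 26 such genes above the level minimum of 10 CPM, the same 10 passed 2-fold upward in both strains and the same 1 downward. Among all genes 23% passed upward and 19.7% downward in control cells, and 19.8% and 21.1% in overexpressing cells. The 1 lower gene and part of the 10 encode protein kinase A subunits, described below. No gene of sugar breakdown passed downward before the length trend was subtracted. *PDC1* (pyruvate decarboxylase) came nearest in control cells (-0.96 ± 0.01), and passed with the trend subtracted (-1.13). With *PPZ1* it stood at -0.73, and at -0.74 with the trend subtracted. *PDC5* with *PPZ1* stood at -0.95 ± 0.22 either way. Among the sugar kinases, *HXK1* (hexokinase 1) was higher by 4.51 ± 0.04 in control cells and 4.16 ± 0.03 with *PPZ1*, *GLK1* (glucokinase) by 3.45 ± 0.04 and 3.35 ± 0.03, and *EMI2*, a paralogue of *GLK1*, by 3.60 ± 0.06 and 3.57 ± 0.07, and *HXK2*, the hexokinase of cells on glucose, did not pass 2-fold. In lower glycolysis, 3 of 10 genes passed, *TDH1* (glyceraldehyde-3-phosphate dehydrogenase) by 3.93 ± 0.04 and 3.41 ± 0.04, *ENO1* (enolase) by 3.33 ± 0.03 and 3.20 ± 0.03, and *PYK2* (the less abundant pyruvate kinase) by 2.84 ± 0.12 and 2.74 ± 0.12. The median over these 10 genes was -0.01 and 0.12. *FBP1*, which reverses phosphofructokinase, went from 1.23 to 65.0 CPM in control cells and from 1.21 to 46.6 CPM with *PPZ1*, log2 changes of 4.89 ± 0.31 and 4.43 ± 0.34. *FBP1* passed the level minimum only through its galactose level, so that its place among the 10 genes past 2-fold is no support for them.

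Protein kinase A phosphorylates enzymes of fructose 2,6-bisphosphate metabolism in yeast, and the genes of its subunits were also unlike each other in galactose. *TPK2*, for a catalytic subunit, was higher by 2.73 ± 0.09 in control cells and 2.69 ± 0.09 with *PPZ1*, and so was *BCY1*, for the regulatory subunit (2.17 ± 0.06 and 2.04 ± 0.06). *TPK3*, also for a catalytic subunit, was lower (-1.87 ± 0.18 and -1.30 ± 0.16). None of the 4 transcription factor genes of glycolysis (*GCR1*, *GCR2*, *TYE7*, *RAP1*) passed 2-fold in any of the 7 comparisons.

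Ratios between members within 1 library do not depend on how the libraries were scaled. The ratio of *PFK1* to *PFK2* reads per kb was 1.32 (1.27 to 1.37) in control cells in 2% glucose and 1.31 (1.23 to 1.39) in galactose, and 1.32 (1.27 to 1.38) and 1.29 (1.22 to 1.37) in overexpressing cells. The phosphofructokinase subunits thus kept the same proportion, within counting error, in these 4 libraries. It was 1.40 (1.35 to 1.45) in control cells in 0.25% glucose and 1.68 (1.53 to 1.83) in overexpressing cells in 0.25% glucose, the highest of the 6. These features differ little in length, 3064 and 2980 bp.

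The proportion of synthesis to degradation genes for fructose 2,6-bisphosphate was turned round in galactose. The ratio of *PFK26* plus *PFK27* to *FBP26*, per kb, was 3.17 (2.67 to 3.78) in control cells in 2% glucose, 3.27 (2.88 to 3.73) in 0.25% glucose and 0.585 (0.535 to 0.640) in galactose. In overexpressing cells it was 2.93 (2.47 to 3.50), 1.48 (1.11 to 1.98) and 0.733 (0.665 to 0.808). It was below 1 in both galactose libraries and above 1 in the 4 glucose libraries. Of reads not divided by length, the galactose ratios were 0.851 in control and 1.05 in overexpressing cells, against 1.78 to 3.89 on glucose. Within the pair of kinase genes, *PFK27* was the more abundant per kb on glucose, with a ratio to *PFK26* of 2.09 (1.78 to 2.45) and 1.94 (1.72 to 2.18) in control cells in 2% and 0.25% glucose, and *PFK26* in galactose (0.561, 0.477 to 0.657). In overexpressing cells the ratio was 2.79 (2.35 to 3.31), 1.80 (1.26 to 2.56) and 0.625 (0.531 to 0.732). The ratio of *FBA1* to *PGI1*, per kb, was 7.24 (7.09 to 7.39) in control cells in 2% glucose, 6.34 (6.23 to 6.46) in 0.25% glucose and 11.5 (11.1 to 11.9) in galactose. With *PPZ1* it was 7.84 (7.68 to 8.01), 10.4 and 11.8 (11.5 to 12.2). As counted, overexpressing cells in 0.25% glucose thus lay nearer to the galactose libraries than control cells did. From 2% to 0.25% glucose in overexpressing cells the log2 changes were 0.11 for *FBA1* and -0.29 for *PGI1*. With the length trend subtracted they were 0.11 and -0.01, closer together. Apart from *PFK1* and *PFK2*, the genes compared differ in feature length, and the part of the length trend in the ratios of overexpressing cells in 0.25% glucose was not tested.

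**Figure D4:**
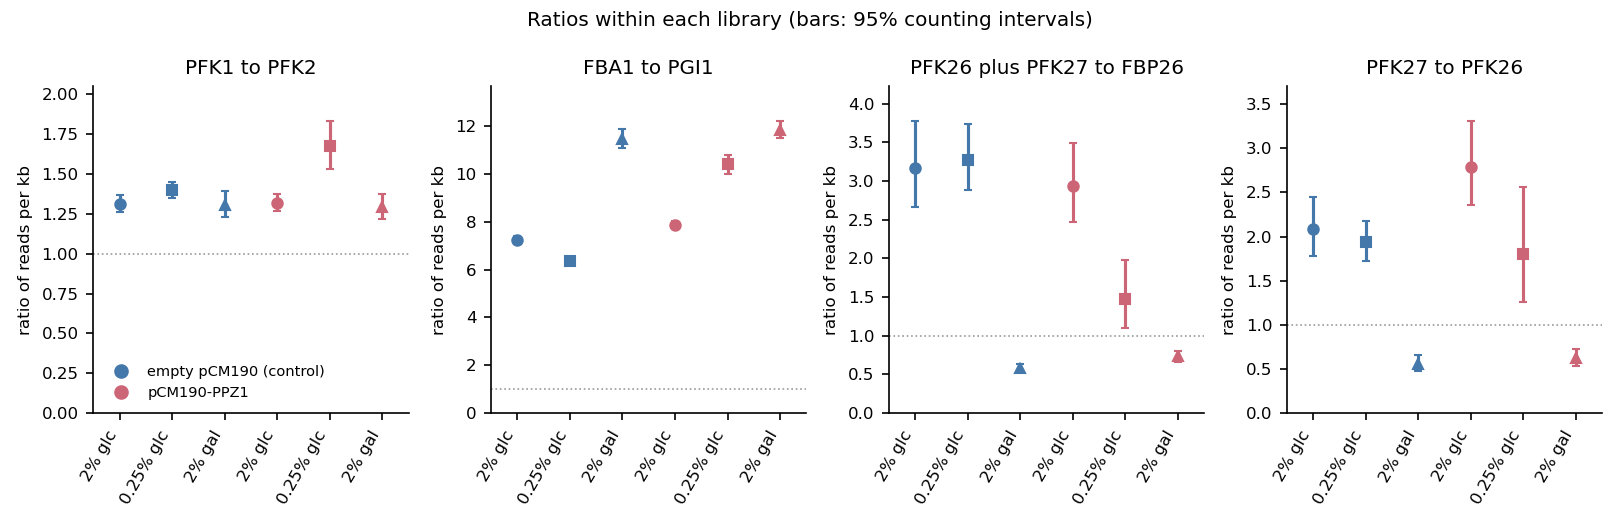
Ratio of reads per kb between members (vertical axes, from 0) in each of the 6 libraries (horizontal axis), control cells in blue and cells with pCM190-PPZ1 in red; bars are 95% counting intervals and the dotted line marks a ratio of 1. The ratio of *PFK26* plus *PFK27* to *FBP26* is 0.585 and 0.733 in galactose and between 1.48 and 3.27 on glucose.

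Low glucose set the regulatory genes apart from the main pathway in control cells. The change from 2% to 0.25% glucose was 0.66 ± 0.10 for *PFK26* (1.59-fold), 0.56 ± 0.10 for *PFK27* (56.5 to 83.6 CPM) and 0.54 ± 0.13 for *FBP26*. These were the 130th, 236th and 263rd highest of 5241 genes, whose median was 0.13 and whose 90th percentile was 0.42. All 3 were thus higher in 0.25% glucose, genes of synthesis and of degradation alike, without passing 2-fold. With median-of-ratios scaling the values were 0.54, 0.44 and 0.42. In the main pathway the changes were 0.11 ± 0.02 for *PGI1*, 0.06 ± 0.02 for *PFK1*, -0.03 ± 0.03 for *PFK2* and -0.08 ± 0.01 for *FBA1*, all below the median of all genes, and those of *PGI1* and *PFK1* turned to -0.01 and -0.06 with median-of-ratios scaling and were also below 0 with upper-quartile scaling or the length trend subtracted. None of the 7 passed 2-fold in either direction, as did 0.897% of all genes upward and 0.134% downward. Among 25 other pathway genes, *HXK1* (2.77 ± 0.04) and *EMI2* (1.09 ± 0.07) passed upward and none downward, and *EMI2* stood at 0.92, short of 2-fold, with the length trend subtracted.

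In cells overexpressing *PPZ1* the same step gave a different picture for the kinase genes. *PFK27* went from 66.8 to 33.7 CPM (26.0 to 43.1), a log2 change of -0.97 ± 0.19, just short of 2-fold, and *PFK26* from 47.8 to 37.4 CPM (-0.35 ± 0.19). *FBP26* differed little, with 34.9 CPM in 2% and 40.0 CPM in 0.25% glucose (0.19 ± 0.19). *PFK2* was lower in 0.25% glucose, at 407 CPM against 771 CPM (-0.92 ± 0.06), followed by *PFK1* with 701 against 1047 CPM (-0.58 ± 0.04) and *PGI1* with 1632 against 1998 CPM (-0.29 ± 0.03), and *FBA1* was slightly higher, at 11338 CPM (0.11 ± 0.01). Feature length moved with these values, since the change over all 5213 genes had a Spearman correlation of -0.60 with it. With that trend subtracted, *PGI1*, *PFK1* and *PFK26* stood at -0.01, -0.03 and 0.13, *PFK2* at -0.38, *PFK27* at -0.90, *FBP26* at 0.34 and *FBA1* at 0.11. None of the 7 passed 2-fold, against 1.67% of all genes upward and 4.76% downward, and of 25 other pathway genes only *HXK1* did (1.68 ± 0.04, and 1.83 with the trend subtracted).

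The responses of the strains to low glucose differed most for *PFK27*. Its log2 change was 0.56 in control cells and -0.97 in overexpressing cells, a difference of -1.52 ± 0.22, the 79th lowest of 5163 genes, whose median was -0.25. It was -1.32 with the length trend subtracted in both strains. For *PFK26* the difference was -1.01 ± 0.21, and -0.36 with the trend subtracted. For *FBP26* it was -0.34 ± 0.24 and -0.06. For the main pathway the differences were -0.40 ± 0.03 for *PGI1*, -0.64 ± 0.05 for *PFK1*, -0.89 ± 0.06 for *PFK2* and 0.19 ± 0.01 for *FBA1*, and 0.05, 0.10, -0.16 and 0.32 with the trend subtracted. All of these rest on the smallest library, and no value without it can be had.

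The direct comparison of the strains gave the same order in 0.25% glucose. *PFK27* was lower with *PPZ1* by a log2 difference of -1.28 ± 0.19 (33.7 against 83.6 CPM) and *PFK26* by -1.18 ± 0.18 (37.4 against 86.1 CPM), the 194th and 290th lowest of 5243 genes. These 2 of the 7 were at least 2-fold lower and none was 2-fold higher, where 9.96% of all genes were lower and 0.801% higher. *PFK2* (-0.92 ± 0.06), *PFK1* (-0.66 ± 0.04), *PGI1* (-0.33 ± 0.03) and *FBP26* (-0.12 ± 0.18) followed, and *FBA1* was higher (0.38 ± 0.01). The median of the 7 was -0.66, against -0.24 for all genes. With the length trend subtracted *PFK27* alone remained past 2-fold (-1.10), *PFK26* stood at -0.47, and the main pathway at 0.12 for *PGI1*, 0.16 for *PFK1*, -0.11 for *PFK2* and 0.44 for *FBA1*, so that *PGI1* and *PFK1* changed sign. *FBP26* turned to 0.20 with the trend subtracted and 0.13 with median-of-ratios scaling. Median-of-ratios scaling, which brings the median of all genes to 0.01, gave -1.04 for *PFK27* and -0.93 for *PFK26*, and upper-quartile scaling gave -0.99 and -0.89, so that neither passed 2-fold. Of all genes 2.35% were at least 2-fold lower with the trend subtracted, 4.37% with median-of-ratios scaling and 3.61% with upper-quartile scaling. None of 25 other pathway genes passed 2-fold here.

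**Figure D5:**
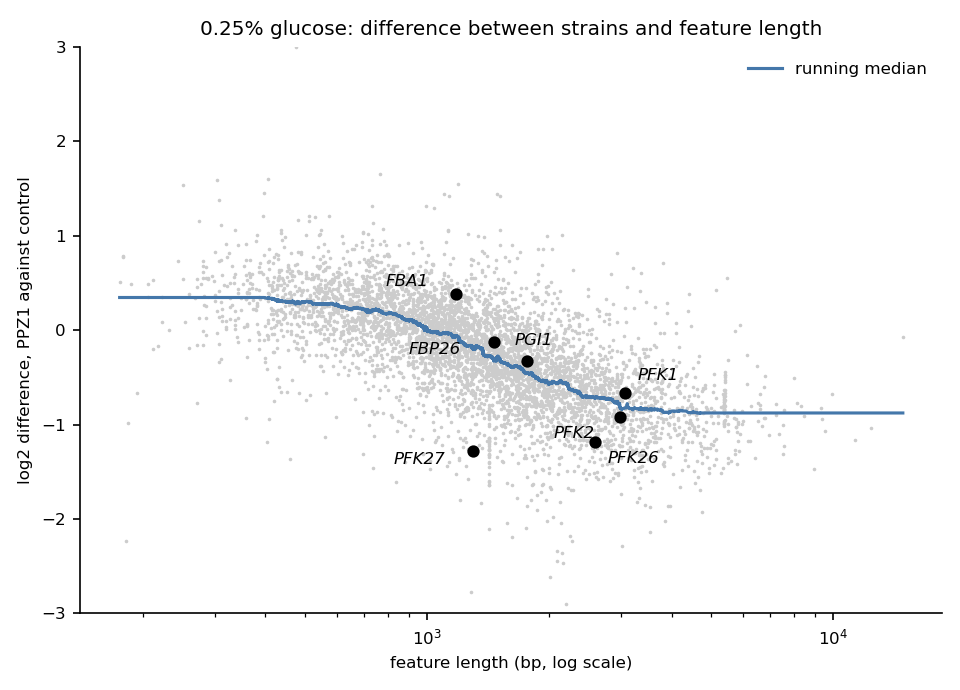
log2 difference between cells overexpressing *PPZ1* and control cells in 0.25% glucose (vertical axis; 1 gene lies beyond it) against feature length in bp (horizontal axis, log scale) for all genes in grey, with their running median as a line and the 7 genes in black. *PFK27* lies 1.10 below the line, *PFK1*, *PGI1* and *PFK2* lie 0.16, 0.12 and -0.11 from it, and *FBA1* lies 0.44 above it.

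In the other media the strains were much alike. In 2% glucose the 7 differences ran from -0.17 ± 0.12 for *PFK26* to 0.24 ± 0.11 for *PFK27*, with *FBA1* at 0.19 ± 0.01, and none passed 2-fold, against 0.115% of all genes upward and 0.0576% downward. In galactose they ran from -0.51 ± 0.07 for *FBP26* to 0.25 ± 0.01 for *FBA1*, again with none past 2-fold, against 0.0187% upward and 0.0561% downward. *FBA1* was higher with *PPZ1* in all 3 media, by 1.14-fold, 1.30-fold and 1.19-fold with the authors' scaling. Its direction held under each scaling tried but its size did not, with log2 differences of 0.24, 0.64 and 0.41 by median-of-ratios scaling. This was not particular to *FBA1*. The median log2 difference over the 10 lower glycolysis genes was 0.13, 0.27 and 0.32 in 2% glucose, 0.25% glucose and galactose. *PFK26* was lower with *PPZ1* in all 3 media, though in 2% glucose its interval (0.743-fold to 1.05-fold) includes equality. In galactose its difference was -0.24 ± 0.08, where the median of all genes was -0.13. There it was -0.09 with median-of-ratios scaling and -0.06 with the length trend subtracted. The additive fit used TMM scaling in place of the authors', so its values are not on the scale of those given for each medium. In this fit, over the 3 media, *FBA1* (0.41 ± 0.19) and *PFK26* (-0.37 ± 0.19) had the largest strain differences of the 7. Both had an adjusted p of 0.727 by edgeR's quasi-likelihood test. None of the 7 was called, and none had an unadjusted p under 0.05 in this fit with TMM. Of all genes 0.0186% were called higher, which is *PPZ1* itself, and 0% lower, with 227 at an unadjusted p under 0.05. DESeq2 called 3 genes, all higher (*PPZ1*, *SSA4* and YPR036W-A), and none of the 7. *FBA1* had an unadjusted p of 0.0106 there by its Wald test, and of 0.0493 by edgeR's quasi-likelihood test with RLE scaling, which did not call it. Without the 0.25% glucose libraries edgeR called 62 genes higher and 30 lower, again none of the 7. *FBP26* had an unadjusted p of 0.0461 there by the quasi-likelihood test. Low glucose over both strains also called none of the 7, nor did any have an unadjusted p under 0.05, and 0.334% of all genes were called higher and 0.111% lower. DESeq2 again called none of the 7 there, and of all 5382 genes it called 42 higher and 10 lower.

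The profile of each member over the 6 libraries was compared with those of the 5382 genes above the level minimum, as the root mean square difference of mean-centred log2 levels. No counting error was given to these differences, so the order of near neighbours was not tested. The nearest to *FBP26* were YDR379C-A (0.04) and *XKS1*, for xylulokinase (0.06). *XKS1* stood at 358 and 288 CPM in the galactose libraries and between 41.1 and 61.0 CPM on glucose. YDR379C-A stood at 79.6 and 61.5 CPM in galactose and between 7.88 and 11.6 CPM on glucose. It thus cleared the level minimum mainly through its galactose level. *PFK26* had no neighbour closer than *MDM34*, for a component of the tether between the endoplasmic reticulum and mitochondria (0.12), and *IRA2*, for an inhibitor of Ras (0.13). Nearest to *PFK27* were *NRD1*, for a factor of transcription termination (0.06), and *YRF1-4*, of a repeated subtelomeric family whose reads may be shared (0.09). *PGI1* lay nearest to *NDC1* (0.04) and *CNB1* (0.05), *PFK1* to *SLI15* (0.04) and *PMT1* (0.05), *PFK2* to *ILV2* and *GLT1*, for enzymes of amino acid synthesis (both 0.05), and *FBA1* to *APC11* (0.05) and *FCY1* (0.07). No member was among the nearest pair of another member.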

How the data were processed

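The data are mRNA-Seq values of 6 libraries, 1 per condition, grouped by the plasmid and carbon source in their labels. The authors aligned reads with Bowtie2 (version not given in the sources used here) and, per the file headers, counted them in SeqMonk 0.32.1 over coding sequences extended by 50 bp, without duplicates and on the opposite strand. The deposited values are whole read counts for the largest library, from control cells in 0.25% glucose. For the other 5 they are a signal, counts that the authors multiplied by 1 factor per library (1.19 to 3.57). Dividing by it gave whole reads, within 0.01, for 100% of values. The build is not stated, and of 5957 feature names found in R64, 5947 had the same ends there.

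Levels are deposited values per 1000000 reads of the largest library, which keeps the authors' scaling. log2 changes were taken after adding 1 CPM, for genes whose mean of both compared libraries reached 10 CPM (19.0 reads in the smallest library, 67.8 in the largest). The 2-fold threshold is the study's. Standard errors assume Poisson counts. Levels have exact Poisson intervals and ratios exact Clopper-Pearson intervals, which for the ratio with a sum hold the mix of the summed genes fixed. Median-of-ratios and upper-quartile scaling, own totals, other pseudocounts, thresholds and level minimums, and subtraction of a running median over 301 genes of similar length were alternatives. Galactose against 0.25% glucose was added after seeing the data. No model was fitted for a response of each strain, which has no residual. The additive fit (strain plus medium, on the recovered reads) used edgeR 4.0.16 with TMM, and RLE scaling, DESeq2 1.42.0 and a fit without 0.25% glucose as alternatives, all added after seeing the data. Of the additive fits only edgeR with TMM was tested on simulated data, for a difference between strains and without a difference between media. All 7 members and listed pathway genes past 2-fold were named, with the 2 nearest profiles per member, except for items not reported here. Members and lists were chosen with earlier results of these data known. Python 3.11.15, numpy 2.4.6, pandas 2.3.3, scipy 1.17.1, matplotlib 3.10.9 and R 4.3.3 were used.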

Additional observations from a re-analysis of the deposited data

Results flagged for a closer look

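Several members moved in opposite directions in different strains or media, each beyond its own counting error. None of these differences was tested, because each condition had 1 library, and all involve the library with the fewest reads, from overexpressing cells in 0.25% glucose. The response to low glucose had opposite signs in the strains for *PFK27* (overexpressing minus control cells, -1.52 on the log2 scale), *PFK1* (-0.64), *PGI1* (-0.40) and *FBA1* (0.19). Seen the other way, the difference between the strains was opposite in sign in 2% and 0.25% glucose for *PFK27* (2% minus 0.25% glucose, 1.52) and *PGI1* (0.40), and in 0.25% glucose and galactose for *PGI1* (0.25% glucose minus galactose, -0.54). For *PFK27* the sign in each strain was the same with every scaling tried and with the length trend subtracted. For *PGI1* and *PFK1* the sign in control cells turned with median-of-ratios or upper-quartile scaling and with the length trend subtracted. With that trend subtracted the strain difference of *PGI1* was above 0 in all 3 media (0.09, 0.12 and 0.33 in 2% glucose, 0.25% glucose and galactose), so that its opposite signs were not seen there.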

How the results depend on the processing

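Of 322 recomputed log2 changes of the 7 genes, 214 stayed within their counting interval, 108 moved beyond it and none past 2-fold changed direction. No sign or interval changed with another pseudocount or none, whereas 31 of 49 values moved with the length trend subtracted, 30 with upper-quartile and 21 with median-of-ratios scaling. The count of members past 2-fold in 0.25% glucose, *PPZ1* against control, was 2, both lower (9.96% of all genes lower). It went to 1 with median-of-ratios scaling (4.37% of all genes lower) or the length trend subtracted (2.35%). It went to 0 with upper-quartile scaling (3.61%) or a 3-fold threshold (1.16%). With a 1.5-fold threshold it was 4, all lower (28.8% of all genes lower), and the counts became 1 and 2 for low glucose in control and overexpressing cells (4.20% and 26.0% of all genes in either direction) and 5 for galactose in each strain (63.4% and 62.2%). Upper-quartile scaling also gave 5 for galactose in control cells (44.5% of all genes in either direction). The *PFK26* plus *PFK27* to *FBP26* ratio spanned 5.59-fold over the libraries per kb and 4.57-fold without division by length. No replicate could be left out, since each condition had 1 library. Pairing the strains by medium is the additive fit. Its 5 members called in galactose and 0 in the strain and low glucose comparisons were the same counts with RLE scaling and DESeq2. For galactose and the strains they were also the same without 0.25% glucose. In galactose edgeR with TMM called 1772 genes higher and 1769 lower of 5382. RLE scaling called 1786 and 1735, DESeq2 1627 and 1596, and the fit without 0.25% glucose 2245 and 2271. That last fit rests on fewer libraries and called the largest share of all genes. Counts of 64 to 76 reads limit the regulatory genes in the smallest library.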
